A study of Drosophila melanogaster with 249 samples.

Results

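The genes of the somatic sex determination hierarchy were followed through all adult head libraries of the series. The members are Sxl (FBgn0264270, chromosome X), tra (FBgn0003741, 3L), tra2 (FBgn0003742, 2R), dsx (FBgn0000504, 3R) and fru (FBgn0004652, 3R), that is 5 of the 17142 genes counted. They were chosen by name as the core of the pathway, with no measured value in the choice. In flies with a pair of X chromosomes, Sex-lethal (SXL), an RNA-binding protein, directs the female splicing of its own transcript and of transformer (tra). The TRA protein then works with Transformer-2 (TRA2), a splicing factor made in both sexes, on the pre-mRNAs of doublesex (dsx) and fruitless (fru), which encode transcription factors of sexual differentiation and of courtship circuits in sex-specific forms. SXL also represses translation of msl-2 and so keeps the dosage compensation complex off in females. The hierarchy therefore acts mainly through splicing. The values here are totals per gene, in which female and male transcripts of a gene are counted together.

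Each library was made from a pool of 10 heads of adults aged 5 d, and 235 libraries of 79 conditions were used. The 97 XX libraries came from females and the 39 XY libraries from males. The 96 tra2 XX libraries came from XX females transformed into males by tra2B over Df(2R)trix, and the 3 tra2 XY libraries from XY males with the same alleles. The deficiency lines were heterozygotes, so that 1 segment of the X (19 lines) or of chromosome arm 3L (11 lines) was present in 1 copy. X lines were Df(1)/w1118 in XX (56 libraries) and tra2 XX (57 libraries). The 3L lines were Df(3L)/+ from crosses with w1118 parents, in XX, XY and tra2 XX (33 libraries each). Flies without an X or 3L deficiency were w1118, the white-eyed parental strain (3 libraries in each of the 4 groups), w+, the OreR wild type (3 XX and 3 XY), and w+/w1118 (2 XX and 3 tra2 XX). All X-line and 3L-line flies carried a deficiency, XX females included, and all tra2 XX and tra2 XY flies carried Df(2R)trix over tra2B, which also changes the dose of other genes on 2R. The replicates of a line are separate pools of flies of the same cross, so the line was the unit of replication in the deficiency lines.

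The libraries held between 667146 and 18679735 reads on genes (median 7611689), with medians of 8859704 in XX, 10022543 in XY and 5691607 in tra2 XX. The head markers ninaE, trp, elav, nSyb and repo were above 0 in every library. The 10 testis, accessory gland and ovary markers had medians of 0 to 2 normalized read counts in every group, apart from betaTub85D with medians of 4.03 to 13.8. In 20 libraries the yolk protein RNA Yp1 or the dosage compensation RNA roX1 was out of keeping with the label: 6 XX and 5 tra2 XX libraries had roX1 above 252, and 3 XY, 5 tra2 XX and 1 tra2 XY library had Yp1 above 1142. Values without these libraries are given where they change the call of a member. The share of reads outside annotated genes also differed between groups, with medians of 1.29% in tra2 XX, 2.19% in XX, 2.54% in tra2 XY and 2.56% in XY, and the fat body marker Lsp2 had medians of 1609, 7625, 725 and 5777 in the same order. In whole heads, fewer cells of a type and less RNA per cell cannot be told apart.

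All 5 genes were detected in every library. Per length of transcript, in FPKM (fragments scaled by transcript length and library depth), Sxl was the highest with a median of 50.7 over all libraries, followed by fru (20.6), dsx (12.7), tra (11.8) and tra2 (9.13). In XX the FPKM of Sxl (14.7 to 103, median 63.4) overlapped that of fru (5.36 to 37.8, median 23.2), and dsx (4.35 to 21.4), tra (6.43 to 24.9) and tra2 (5.68 to 19.3) overlapped over most of their ranges. The order of the last 3 was not constant: in XY tra2 (median 12.9 FPKM) stood above tra (11.7), and in tra2 XX tra (10.4) stood above dsx (9.20) and tra2 was last (3.21). From here on, levels are normalized read counts, the read count divided by 1 size factor per library, and are compared only within a gene. The reads behind them ranged from 20 to 5676 for Sxl and from 19 to 2964 for fru, but from 3 to 325 for tra and from 5 to 358 for tra2, so single libraries are least precise for tra and tra2. The XY library of Df(3L)ED4475 replicate 2, with 1381962 reads on genes, held the highest value of tra (233.6) and tra2 (277.8) and the lowest value of dsx (107.3) and fru (119.9) among all 235 libraries, and it is 1 of the 20 libraries with an unusual Yp1 or roX1 level.

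**Figure D1:**
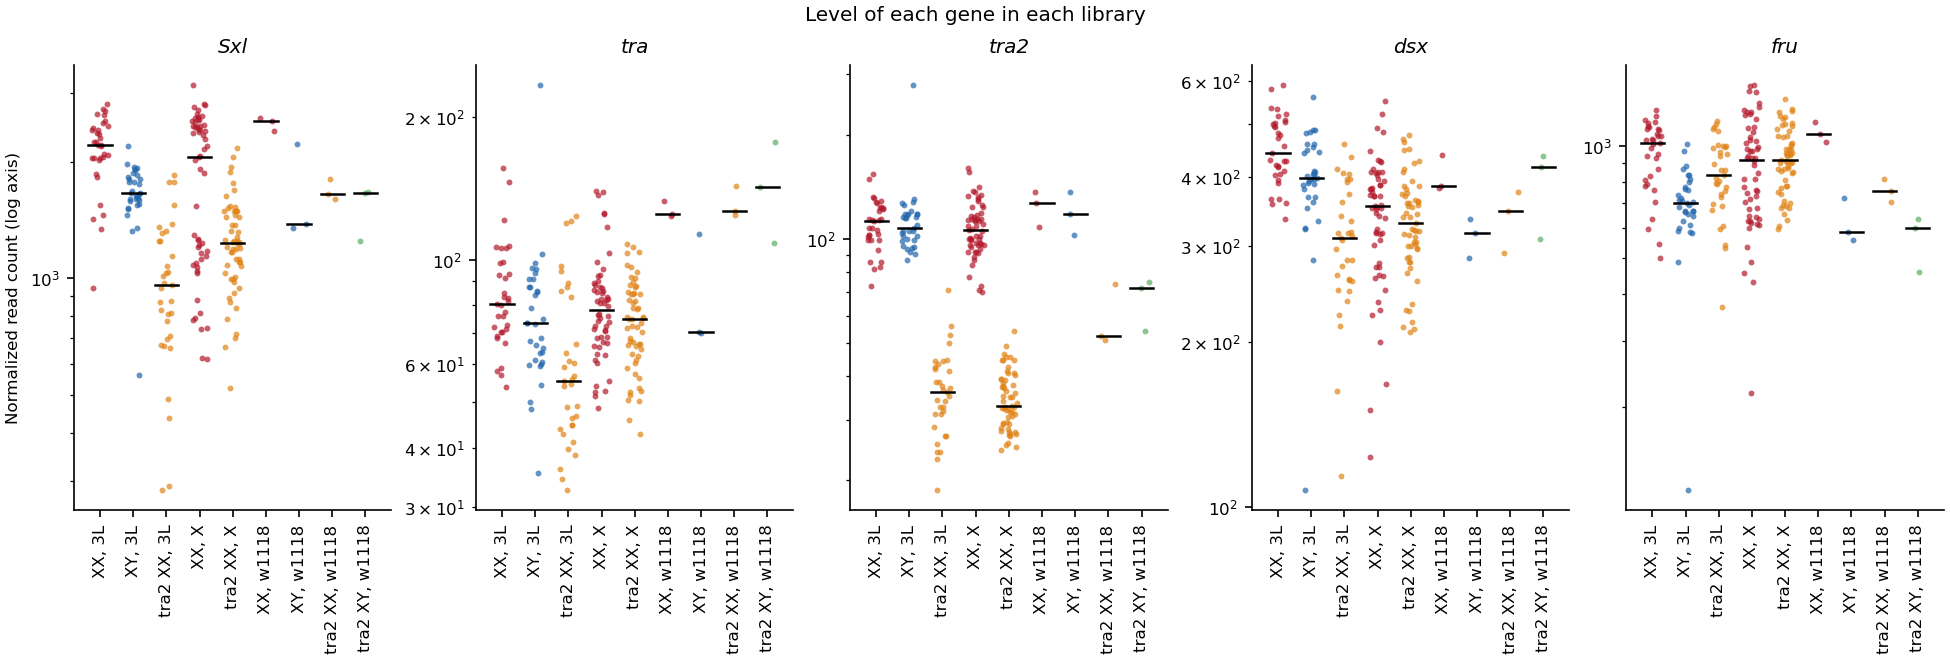
Normalized read count (log axis) of each of the 5 genes in each library, by group and by line class; each point is 1 library and each bar the median. The tra2 panel shows the separation of the tra2 XX libraries of the 3L lines (18.8 to 71.2) from the XX libraries (73.3 to 154), and the Sxl panel the lower medians of tra2 XX (961 in 3L lines, 1234 in X lines).

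The gene that carries the mutant alleles, tra2, was the first check of the labels. In w1118 its level was 108.2, 137.0 and 127.0 in XX and 102.3, 118.2 and 136.7 in XY, against 50.8, 74.1 and 52.2 in tra2 XX and 74.9, 71.9 and 54.2 in tra2 XY. Neither tra2 group overlapped the group with the same sex chromosomes. In the 3L lines tra2 had a median of 112.7 in XX (73.3 to 154), of 107.3 in XY (86.8 to 278) and of 35.9 in tra2 XX (18.8 to 71.2). The X lines gave 70.2 to 160 (median 106.2) for XX and 24.4 to 54.3 (median 32.9) for tra2 XX. No tra2 XX library of a deficiency line thus reached the XX libraries of the same class. The transcript remained detectable in every tra2 XX library, with at least 5 reads.

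Over lines, tra2 fell 3.01-fold in tra2 XX against XX in the 3L lines (log2 −1.59 ± 0.079 SE, adjusted p = 3.1e-15, edgeR quasi-likelihood test) and 3.05-fold in the X lines (log2 −1.61 ± 0.049, adjusted p = 3.6e-17). It was lower in 11 of 11 and 19 of 19 lines. Of all genes tested, 216 of 10290 and 103 of 9774 had a lower fold change. Against XY it fell by 1.57 on the log2 scale (adjusted p = 2.5e-15, 11 of 11 lines). The difference between the X and 3L lines was −0.01 ± 0.093. In w1118 its log2 fold change was −1.06 ± 0.18 in tra2 XX against XX (adjusted p = 0.0024) and −0.84 ± 0.18 in tra2 XY against XY (adjusted p = 0.021). The tra2 XY call was lost, with adjusted p up to 0.091, when any of 4 single libraries (tra2 XY or XY replicates 2 and 3) was left out. Between the sexes tra2 did not pass the test, with a log2 fold change of XX over XY of 0.02 ± 0.069 in the 3L lines, where 5 lines were higher and 6 lower in XX. On the FPKM scale this turned to −0.23 (adjusted p = 0.0072), where the median over all genes was also −0.21.

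The genes beside tra2 on 2R also had lower levels in flies with the tra2 alleles. Among the 10 measured genes on each side of it, 14 of 20 fell and 4 rose in tra2 XX against XX in the 3L lines, and as many in the X lines, where 35.8% and 28.3% of all genes fell. The median log2 fold changes of the 20 genes were −0.65 and −0.59, against −0.01 over all genes in each. In w1118 9 of 20 fell in tra2 XX (median −0.58) and 7 of 20 in tra2 XY (median −0.40), against 5.69% and 2.12% of all genes. Between XX and XY in the 3L lines, where neither group carried the alleles, their median was −0.05. The gene next to tra2 on one side, Blos1, a subunit of the BLOC-1 complex of lysosome-related organelles, fell by 0.73 on the log2 scale in the 3L lines and 0.86 in the X lines. The gene on the other side, CG12868, fell by 0.84 and 0.92. The fall of tra2 itself was larger than these in the deficiency lines. It was exceeded among the 20 by Uhg5, a snoRNA host gene, in the 3L lines (log2 −2.21) and the X lines (−1.68). In w1118 tra2 (−1.06 in tra2 XX and −0.84 in tra2 XY) was exceeded by several neighbours, with Achl the lowest (−2.78 and −2.11). Reads of tra2 and Blos1 cannot be told apart where they overlap on opposite strands (0.38% of the exonic bases of tra2), since the counting is not known to have used strand.

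**Figure D2:**
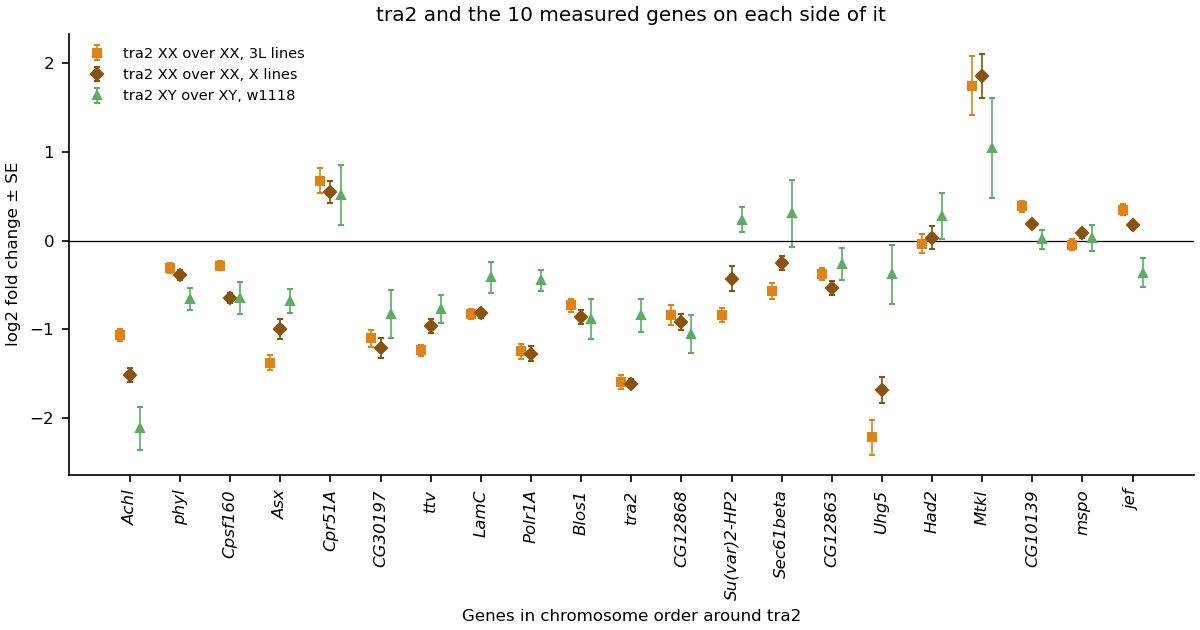
log2 fold change ± SE of tra2 and of the 10 measured genes on each side, in chromosome order, in flies with the tra2 alleles against flies without them. Of the 20 neighbours 14 fell in tra2 XX in the 3L and in the X lines, with medians of −0.65 and −0.59, and tra2 at the centre was at −1.59 and −1.61.

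Sxl, the switch at the top of the hierarchy, was higher in XX than in XY of the 3L lines and lower in tra2 XX than in either. In w1118 its level was 2550, 2400 and 2596 in XX, 1351, 1380 and 2228 in XY, 1646, 1810 and 1604 in tra2 XX and 1245, 1665 and 1671 in tra2 XY. The XX libraries stood above all others there, while 2 of the XY libraries lay below the tra2 XX libraries and the third above them. In the 3L lines Sxl had a median of 2212 in XX (944 to 2814), of 1659 in XY (562 to 2200) and of 961 in tra2 XX (285 to 1843). XX of the X lines spanned 621 to 3145 (median 2059) and tra2 XX spanned 521 to 2165 (median 1234). Single libraries of the groups overlapped, whereas the line means of the 3 groups of 3L lines did not.

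In the comparison of XX with XY over the 3L lines, Sxl, fru and dsx were higher, so that 3 of the 5 genes passed the test in that direction and none in the other, where 24.0% of all 10290 genes were called higher and 30.8% lower. Sxl rose by 0.37 ± 0.073 on the log2 scale (1.29-fold, adjusted p = 0.00012), and was higher in XX in 11 of 11 lines. In w1118 its log2 fold change was 0.59 ± 0.18, which did not pass (adjusted p = 0.073). It passed with DESeq2 (adjusted p = 0.022), without tra2 XY replicate 1, the w1118 library with an unusual Yp1 level (adjusted p = 0.037), without XY replicate 3 (log2 0.86, adjusted p = 0.0046) and with the share of reads outside genes as a covariate (adjusted p = 0.0065). In OreR it was 0.12 ± 0.20. The sign of the 3L difference changed with the unit. On the FPKM scale it was −0.11 ± 0.094 (adjusted p = 0.28, limma), with XX higher in 3 of 11 lines. The median over all genes was −0.21 on that scale, so Sxl stayed above the median gene.

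In tra2 XX against XX, 4 of the 5 genes (Sxl, tra, tra2 and dsx) fell in the 3L lines, where 35.8% of 10290 genes did, and 2 of the 5 (Sxl and tra2) fell in the X lines, where 28.3% of 9774 genes did. Sxl fell by 1.04 ± 0.074 on the log2 scale in the 3L lines (2.06-fold, adjusted p = 3.0e-12, 11 of 11 lines) and by 0.53 ± 0.11 in the X lines (1.44-fold, adjusted p = 0.00027, 14 of 19 lines). The difference between these was itself past the threshold (0.53 ± 0.16, adjusted p = 0.020), but not without replicate 1 (adjusted p = 0.14) or replicate 2 of every line. Against XY, Sxl fell by 0.67 ± 0.074 in tra2 XX (adjusted p = 6.6e-09, 11 of 11 lines). In w1118 its log2 fold change was −0.56 ± 0.18 in tra2 XX against XX (adjusted p = 0.055, and 0.029 without tra2 XY replicate 1, 0.0064 without XY replicate 3 and 0.019 with DESeq2) and −0.12 ± 0.18 in tra2 XY against XY. Whether the change with the tra2 alleles differed between XX and XY was tested in w1118 by the interaction (−0.44 ± 0.25, adjusted p = 0.40).

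**Figure D3:**
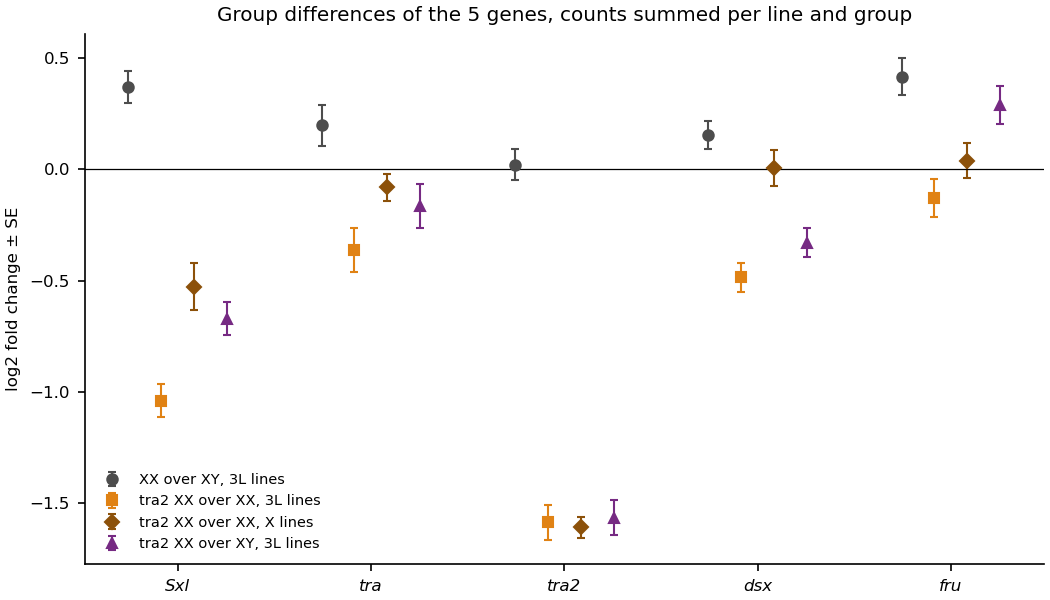
log2 fold change ± SE of the 5 genes in the 4 comparisons over deficiency lines, from the edgeR fit of counts summed per line and group. Sxl and tra2 lie below 0 in each comparison of tra2 XX, and Sxl, fru and dsx above 0 in XX over XY. On the FPKM scale Sxl was at −0.11 there, where the median over all genes was also below 0.

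The level of Sxl moved closely with the share of reads that fell outside annotated genes. Over libraries of 1 group, Spearman's rho was 0.89 in the 97 XX, 0.95 in the 96 tra2 XX and 0.86 in the 39 XY libraries, and Pearson's r was 0.96, 0.94 and 0.91. Of the 9503 genes compared, 0.168%, 0.0105% and 0.779% had a higher rho in these groups. Both values come from the same libraries, the libraries of a line share their cross, and they are given as a description. fru had a rho of 0.81, 0.69 and 0.70, and dsx of 0.42, 0.60 and 0.40. tra (0.17, 0.44 and −0.07) and tra2 (0.21, 0.21 and 0.04) moved less with this share. With the share of reads on the spike-in RNAs added during library preparation the relation was opposite for fru (rho −0.83, −0.71 and −0.75), Sxl (−0.70, −0.46 and −0.66) and dsx (−0.44, −0.43 and −0.17). Like Sxl, the share outside genes was lower in tra2 XX than in XX, in 11 of 11 3L lines and 15 of 19 X lines. Unlike Sxl, it was higher in XX than in XY in only 1 of 11 lines.

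When the log2 share of reads outside genes was added to the fits as a covariate, an alternative chosen after the data were seen, the excess of Sxl in XX over XY was 0.62 ± 0.042 (adjusted p = 1.9e-11). The fall of Sxl in tra2 XX against XX was then 0.28 ± 0.085 in the 3L lines (adjusted p = 0.014) and 0.13 ± 0.053 in the X lines (adjusted p = 0.039). Against XY the value turned to 0.34 ± 0.11 in tra2 XX (adjusted p = 0.042). In the 3L lines the line means of the share did not overlap between tra2 XX (0.90% to 1.38%) and XX (1.81% to 2.60%) or XY (2.08% to 2.82%), so the covariate and the group cannot be told apart in either comparison, for any of the 5 genes. Those of the X lines overlapped (1.05% to 1.99% in tra2 XX and 0.81% to 2.77% in XX). The fall of tra2 kept most of its size with the covariate (log2 −1.42 ± 0.20 in the 3L lines and −1.60 ± 0.062 in the X lines).

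**Figure D4:**
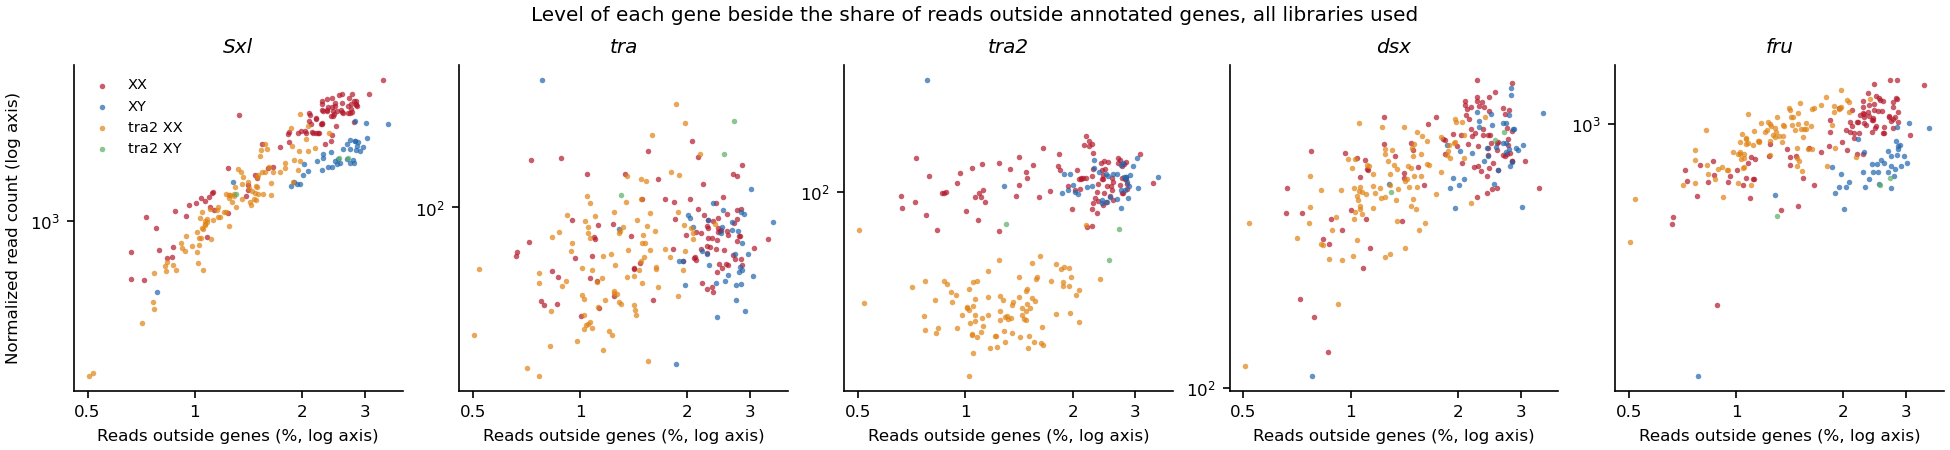
Normalized read count of each gene (log axis) against the percent of reads outside annotated genes (log axis); each point is 1 of 235 libraries, coloured by group. The points of Sxl form a narrow rising band in each group (rho 0.86 to 0.95), whereas those of tra2 form a separate lower cloud for tra2 XX with little slope (rho 0.21).

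Among the X lines the level of Sxl in XX varied by line, with an SD between line means of 0.55 on the log2 scale, against 0.16 among the 3L lines. Df(1)ED6878 had the lowest mean (783, from libraries of 745, 791 and 812), followed by Df(1)ED6906 (887, from 623, 779 and 1260) and Df(1)ED6443 (904, from 741, 877 and 1093). Df(1)ED7153 had the highest (2604, from 2408, 2587 and 2818). The share of reads outside genes was also low in the first 3 lines (0.84%, 0.81% and 1.02%) and high in the last (2.49%). In tra2 XX the means of these 4 lines were 1080, 1231, 1070 and 1276, close to the median line mean of 1228. Relative to the median of the other lines, Sxl was at log2 −1.40 in Df(1)ED6878 XX and −1.22 in Df(1)ED6906 XX. The genes next to it, CG4607 and CG4615, were at 0.23 and 0.25 in the first and at 0.01 and −0.03 in the second. Some genes a little farther away were also low: CG1677 was at −1.0 and Cph at −0.87 in Df(1)ED6878 XX, and in Df(1)ED6906 XX Inx7 was at −1.77, CG1677 at −1.55, unc-119 at −1.38, Cph at −1.33 and brk at −1.10. Others were high, such as bou (0.64) and CG8300 (0.60) in Df(1)ED6878 XX and bou (0.54) and CG4593 (0.53) in Df(1)ED6906 XX. In tra2 XX of Df(1)ED6878 CG1677 was at 0.06 and Cph at 0.16. In tra2 XX of Df(1)ED6906 Inx7 was at −0.49, Cph at −0.11 and Sxl at 0.12. The genes 6 to 10 places from Sxl on one side were all low there. These were CG1677 (−0.57), CG2059 (−1.36), unc-119 (−0.83), brk (−0.56) and Atg5 (−0.91). In XX of this line CG2059 was at −0.38 and Atg5 at −0.73. Of the 20 genes around Sxl, 8 rose and 2 fell in XX against XY in the 3L lines, where 24.0% of all genes rose and 30.8% fell. In tra2 XX against XX of the 3L lines 4 rose and 6 fell, where 35.4% of all genes rose and 35.8% fell. The medians of the 20 genes were 0.06 and 0.04.

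tra, the female-specific splicing factor that SXL controls, did not pass the test between XX and XY in the main fits, and fell in tra2 XX of the 3L lines. Its level in w1118 was 132.7, 124.7 and 123.5 in XX, 70.1, 70.1 and 113.3 in XY, 124.3, 143.2 and 126.6 in tra2 XX and 108.6, 177.8 and 142.7 in tra2 XY. The XX and XY libraries of w1118 did not overlap, while the XX and tra2 XX libraries did. In the 3L lines it had a median of 80.7 in XX (53.7 to 156), of 73.3 in XY (35.3 to 234) and of 55.4 in tra2 XX (32.6 to 123), with all 3 groups overlapping. In the X lines the ranges were 48.6 to 139 (median 78.1) in XX and 42.8 to 108 (median 74.8) in tra2 XX. The log2 fold change of XX over XY was 0.20 ± 0.093 in the 3L lines (adjusted p = 0.074, 9 of 11 lines higher), and the call came to pass without the 20 libraries with unusual Yp1 or roX1 (0.26, adjusted p = 0.034), with DESeq2 (adjusted p = 0.049), without a filter on low counts (adjusted p = 0.045), without Df(3L)ED217 (adjusted p = 0.036) and without Df(3L)ED4978 (adjusted p = 0.044). In w1118 it was 0.58 ± 0.19 (adjusted p = 0.094), which passed without tra2 XY replicate 1 (adjusted p = 0.045), without XY replicate 3 (log2 0.84, adjusted p = 0.013) and with the share of reads outside genes as a covariate (adjusted p = 0.022).

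In tra2 XX against XX tra fell by 0.36 ± 0.098 in the 3L lines (adjusted p = 0.0019, 11 of 11 lines), which did not pass with the share of reads outside genes as a covariate (−0.39 ± 0.26, adjusted p = 0.27). In the X lines its log2 fold change was −0.08 ± 0.062 (adjusted p = 0.28, 12 of 19 lines lower), and the difference between the X and 3L lines did not pass (0.30 ± 0.13, adjusted p = 0.079). In w1118 tra rose by 0.76 ± 0.19 in tra2 XY against XY (adjusted p = 0.041, where 3.6% of genes rose), a call that was lost in 10 of the 12 fits without 1 library (adjusted p up to 0.17), while in tra2 XX against XX it was 0.07 ± 0.19, and 0.40 (adjusted p = 0.033) with the covariate. The share of reads outside genes did not overlap between these XX (2.68% to 2.84%) and tra2 XX (1.80% to 2.17%) libraries. The covariate and the group thus cannot be told apart there either. The interaction was −0.69 ± 0.27 (adjusted p = 0.22), and −0.96 (adjusted p = 0.035) without XY replicate 3. The highest levels of tra among XX flies were in the w+/w1118 flies with tra2 alleles (162.4, 175.8 and 198.8), against 103.7 and 91.8 in w+/w1118 XX. Reads of tra cannot be told apart from those of l(3)73Ah, on the opposite strand, over 8.59% of its exonic bases. In tra2 XX of the 3L lines l(3)73Ah fell by 0.15 relative to XX (log2, adjusted p = 0.012).

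dsx, at the end of the hierarchy, encodes DSX transcription factors in a female and a male form. Its level in w1118 was 439.1, 382.9 and 385.2 in XX, 334.9, 316.4 and 284.4 in XY, 375.7, 290.6 and 347.2 in tra2 XX and 308.6, 437.1 and 418.1 in tra2 XY. The XX libraries stood above those of XY and tra2 XX. In the 3L lines dsx had a median of 444 in XX (336 to 589), of 399 in XY (107 to 561) and of 309 in tra2 XX (114 to 460). In the X lines the ranges were 123 to 551 (median 354) in XX and 209 to 477 (median 330) in tra2 XX. The XX median of the X lines was thus below that of the 3L lines, a difference that was not tested. dsx rose by 0.15 ± 0.064 in XX against XY (adjusted p = 0.043, 9 of 11 lines). This call was lost when any of 7 of the 11 lines (Df(3L)ED210, ED211, ED230, ED4421, ED4457, ED4475 or ED4978) was left out (adjusted p up to 0.12), without replicate 1 or 2, without the 20 libraries with unusual Yp1 or roX1 (adjusted p = 0.073) and on the FPKM scale (adjusted p = 0.17).

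The change of dsx from XX to tra2 XX was unlike in the 2 sets of lines. The median line mean of dsx was 440 (3L lines) and 354 (X lines) in XX, but 332 in tra2 XX of both. dsx fell by 0.48 ± 0.065 in tra2 XX against XX in the 3L lines (1.40-fold, adjusted p = 2.8e-07), where it was lower in 11 of 11 lines and the line means did not overlap. In the X lines its log2 fold change was 0.01 ± 0.081 (adjusted p = 0.96), with 13 lines lower and 6 higher. The difference between them was 0.50 ± 0.12 (adjusted p = 0.0057), where 10.1% of 9835 genes were called in that direction, and it was 0.32 ± 0.093 (adjusted p = 0.017) with the share of reads outside genes as a covariate. Within the 3L lines, however, the fall did not pass with that covariate (−0.18 ± 0.16, adjusted p = 0.39), and in the X lines dsx was then higher in tra2 XX (0.26 ± 0.068, adjusted p = 0.0030). On the FPKM scale the X-line value was −0.31 ± 0.098 (adjusted p = 0.012), with a median over all genes of −0.12. The largest values in the X lines were those of Df(1)ED6878 (log2 0.99), whose XX libraries had dsx levels of 123, 150 and 229. Against XY, dsx fell by 0.33 ± 0.065 in tra2 XX (adjusted p = 5.6e-05, 11 of 11 lines), and the value turned to 0.07 ± 0.20 with the covariate (adjusted p = 0.84). The part of the share of reads outside genes in these differences was not tested further.

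fru, whose male-specific proteins act in the neurons of courtship, was higher in XX than in XY. Its level in w1118 was 1020, 1072 and 1156 in XX, 587, 560 and 723 in XY, 816, 757 and 705 in tra2 XX and 459, 636 and 600 in tra2 XY. The XX libraries did not overlap those of any other group. In OreR the values were 765, 1075 and 1017 in XX and 979, 552 and 792 in XY, which overlapped. In the 3L lines fru had a median of 1019 in XX (500 to 1247), of 702 in XY (120 to 1011) and of 835 in tra2 XX (370 to 1163). Among the X lines XX had values of 218 to 1448 (median 916) and tra2 XX of 599 to 1332 (median 917). fru rose in XX against XY by 0.42 ± 0.084 in the 3L lines (1.34-fold, adjusted p = 0.00016, 11 of 11 lines) and by 0.78 ± 0.13 in w1118 (1.72-fold, adjusted p = 0.0066). On the FPKM scale the 3L value was 0.08 ± 0.10 (adjusted p = 0.48), where the median over all genes was −0.21.

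In tra2 XX the level of fru lay between those of XX and XY in the 3L lines. Against XY fru rose by 0.29 ± 0.085 (adjusted p = 0.0033, 9 of 11 lines, where 38.4% of genes rose), which turned to −0.30 on the FPKM scale (adjusted p = 0.010), where the median over all genes was −0.32. Against XX its log2 fold change was −0.13 ± 0.085 in the 3L lines (adjusted p = 0.18, 7 of 11 lines lower) and 0.04 ± 0.078 in the X lines (adjusted p = 0.70). With the share of reads outside genes as a covariate these became 0.57 ± 0.15 (adjusted p = 0.0066) and 0.30 ± 0.053 (adjusted p = 7.2e-05). In w1118 fru fell in tra2 XX against XX by 0.49 ± 0.13 (adjusted p = 0.025), with adjusted p from 0.0068 to 0.098 when 1 library was left out. In this comparison fru and tra2 were called among the 5 genes, where 15.6% of 9861 genes were, and in XX against XY of w1118 fru alone was, where 6.48% of genes were.

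No member passed the edgeR test in 3 of the comparisons without an X or 3L deficiency. At the same adjusted p under 0.05, 7.39% of 9320 genes were called in XX against XY of OreR. In w1118 0.254% of 9861 genes were called in tra2 XX against tra2 XY, and 1.03% in the interaction. At an unadjusted p under 0.05, a looser threshold to which these shares do not refer, tra2 passed in OreR (log2 0.38 ± 0.14). So did fru in tra2 XX against tra2 XY (log2 0.44 ± 0.13, unadjusted p = 0.0061, adjusted p = 0.33), and tra and dsx in the interaction. DESeq2 called none of the 5 in any of these 3 comparisons. With the share of reads outside genes as a covariate, edgeR called fru (0.45, adjusted p = 0.0020) and tra2 (0.40, adjusted p = 0.035) in OreR, and fru in tra2 XX against tra2 XY (0.48, adjusted p = 0.0092). The covariate also raised the number of all genes called in both comparisons. In the interaction dsx reached an adjusted p of 0.039 (log2 −0.65) without tra2 XY replicate 1, a library with a Yp1 level of 35670 against 34.6 and 33.0 in the other two. Without it dsx also passed in tra2 XY against XY (0.42, adjusted p = 0.047).

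The FPKM and the read counts of a gene can move apart. Both start from the same reads, but cufflinks divides by the length of the transcripts to which it assigns them. The log2 ratio of normalized read count to FPKM, centred on the median gene of each library, is called reads per FPKM here, and was added after the data were seen. A gene whose reads are assigned to longer transcripts has more reads per FPKM. In limma fits over lines most genes differed in this measure, with 68.9% of 7478 genes called in XX against XY, 81.4% in tra2 XX against XY, and 88.4% and 67.9% in tra2 XX against XX of the 3L and X lines, so each change is given with the share of genes that exceeded it.

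dsx had fewer reads per FPKM in XX than in any other group. Over the lines its mean was between 0.75 and 0.85 in XX, between 0.88 and 1.03 in XY and between 0.96 and 1.03 in tra2 XX of the 3L lines, and between 0.63 and 0.91 in XX and 0.96 and 1.13 in tra2 XX of the X lines. The XX lines did not overlap the others of their class. The difference was −0.15 ± 0.013 in XX against XY (11 of 11 lines, a size exceeded by 3.86% of genes), 0.19 ± 0.013 in tra2 XX against XX of the 3L lines (11 of 11 lines, exceeded by 17%) and 0.23 ± 0.014 in the X lines (19 of 19 lines, exceeded by 1.26%). Between tra2 XX and XY it was 0.04 ± 0.013 (exceeded by 60.0%). In w1118 the XX libraries were at 0.77, 0.78 and 0.77, XY at 0.91, 1.04 and 0.97, tra2 XX at 0.96, 0.85 and 0.91, and tra2 XY at 0.79, 0.99 and 1.02. The lowest of the tra2 XY values is that of replicate 1, the library with the high Yp1 level.

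Sxl, tra and fru differed in reads per FPKM in other ways. Sxl had more reads per FPKM in XX than in XY (0.30 ± 0.027, 11 of 11 lines, a size exceeded by 0.267% of genes) and fewer in tra2 XX than in XX of the 3L lines (−0.34 ± 0.027, exceeded by 3.90%). The latter difference was, in the X lines, −0.09 ± 0.025 (adjusted p = 0.0048, exceeded by 15.2%), a call that was lost with the covariate (adjusted p = 0.14), without replicate 3 (adjusted p = 0.21) and without the 20 libraries (adjusted p = 0.0999). Between tra2 XX and XY the difference of Sxl was −0.04 ± 0.027 (adjusted p = 0.16, exceeded by 62.9%). In tra2 XX this measure of Sxl rose with the share of reads outside genes (rho 0.82 over 96 libraries), but in XX and XY rho was 0.17 and −0.17. tra had fewer reads per FPKM in XX than in XY (−0.19 ± 0.028, 11 of 11 lines, exceeded by 1.79%), and also fewer in tra2 XX than in XY (−0.18 ± 0.028, 11 of 11 lines, exceeded by 7.54%). For tra, tra2 XX and XX differed by 0.01 ± 0.028 in the 3L lines (exceeded by 92.8%) and −0.01 ± 0.019 in the X lines (exceeded by 90.5%). fru had more reads per FPKM in XX (0.14 ± 0.013, exceeded by 3.99%) and in tra2 XX (0.21 ± 0.013, exceeded by 5.18%) than in XY, each in 11 of 11 lines. Against XX, fru in tra2 XX was at 0.065 ± 0.013 in the 3L lines (exceeded by 61.7%) and 0.083 ± 0.011 in the X lines (exceeded by 17.2%). For tra2 the differences were 0.06 in XX against XY (exceeded by 26.6%), −0.02 in tra2 XX against XX of the 3L lines (exceeded by 86.6%) and 0.00 in the X lines (exceeded by 98.6%).

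**Figure D5:**
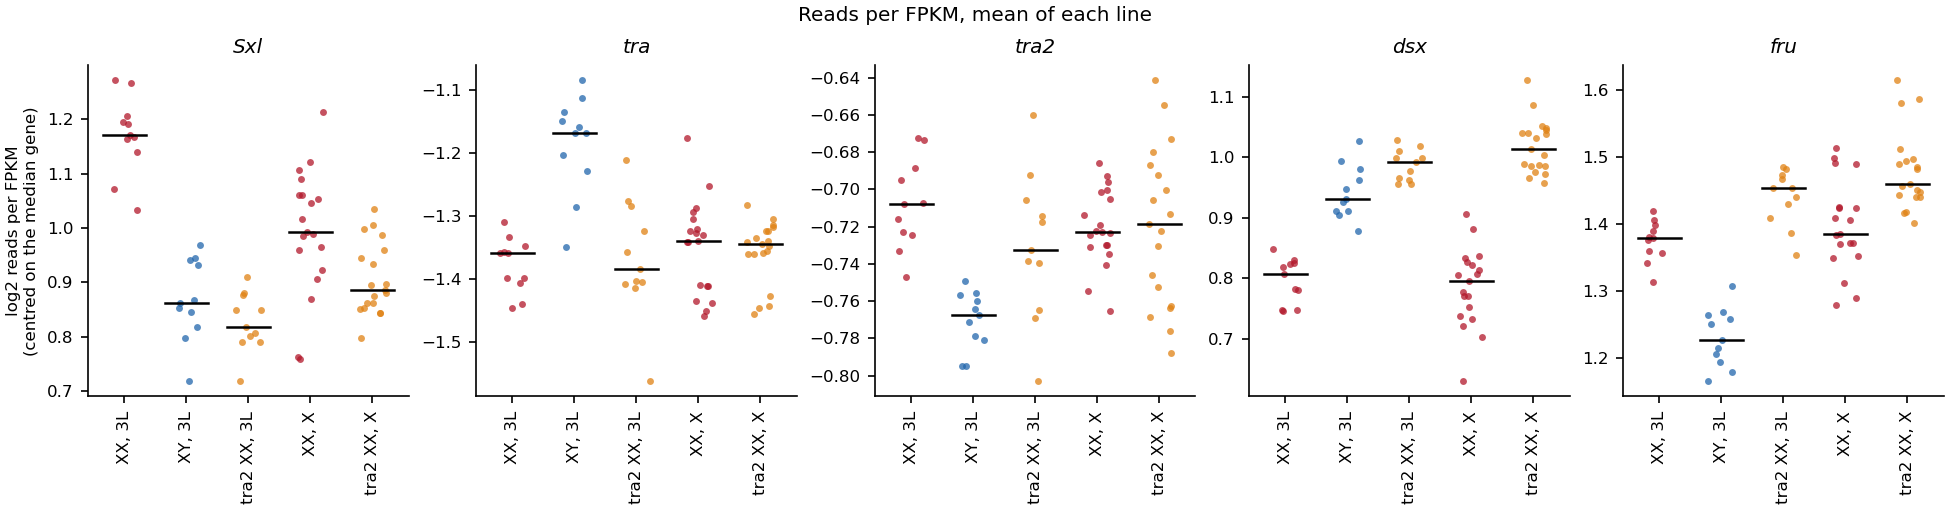
log2 of normalized read count over FPKM, centred on the median gene of each library; each point is the mean of 1 line in 1 group, and each bar the median of the lines. For dsx the XX lines (0.75 to 0.85 in 3L lines) lie below XY (0.88 to 1.03) and tra2 XX (0.96 to 1.03). For tra the XX and tra2 XX means were each below XY in 11 of 11 3L lines, but the ranges of line means overlapped.

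Over the 79 conditions, the means of the members did not follow each other closely, although some pairs moved together over libraries within groups. On the log2 scale of condition means, Pearson's r was 0.71 between Sxl and dsx, 0.68 between Sxl and tra2, 0.50 between Sxl and tra, 0.42 between Sxl and fru and −0.13 between tra2 and fru. Conditions share lines and, in tra2 XX, alleles, so these values are a description. Among 9502 genes compared, those most like Sxl were SK, a calcium-activated potassium channel (r = 0.945), Socs16D (0.944), a suppressor of cytokine signalling, and PAN3 (0.938), of a deadenylase complex. Those most like tra2 were Cyp6a20 (0.959), a cytochrome P450, MFS17 (0.942) and l(2)41Ab (0.942), which all lie on 2R. For tra they were lawc (0.815) and ZC3H3 (0.737). For dsx they were CG13784 (0.844), Eip74EF (0.824), an ecdysone-induced ETS factor, and mbc (0.812). fru had no gene as close, with htk (0.687), CG13003 (0.680) and Marf (0.672), a mitochondrial fusion GTPase, at the top.

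Of 42 listed genes that act with the 5 members, 34 were tested in the 3L lines. In XX against XY 6 rose and 11 fell, in tra2 XX against XX 9 rose and 16 fell, and in tra2 XX against XY 8 rose and 19 fell. Of all genes 24.0% rose and 30.8% fell in the first of these comparisons, 35.4% and 35.8% in the second, and 38.4% and 38.5% in the third. Among the 33 tested in the X lines 4 rose and 17 fell, where 27.2% of all genes rose and 28.3% fell. The list medians of −0.08, −0.13 and −0.18 for the first, the second and the X-line comparison compare with −0.04, −0.01 and −0.01 over all genes. Of the genes that set the early Sxl promoter, 6 of 11 were tested. Stat92E, the STAT factor of the upd1 pathway, rose by 0.48 in XX against XY and fell by 0.43 in tra2 XX against XX of the 3L lines. groucho (gro), a corepressor of that promoter, fell by 0.51 in tra2 XX in the 3L and by 0.27 in the X lines, and run fell by 0.39 in XX against XY.

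All 11 partners of SXL in splicing and RNA binding were tested. In tra2 XX against XX 4 rose and 5 fell in the 3L lines, and 1 rose and 6 fell in the X lines, beside 35.4% and 35.8% of all genes in the former and 27.2% and 28.3% in the latter. Unr, which binds msl-2 mRNA with SXL, fell by 1.56 and 0.84 in the 3L and X lines. Ythdc1, the nuclear reader of m6A that acts on Sxl splicing, fell by 0.88 and 0.48, and fl(2)d, an m6A writer subunit, fell by 0.58 and 0.27. U2af38, the small subunit of the splice site factor that SXL competes with on tra, rose by 0.50 and 0.15. Doa, a kinase of SR proteins, fell by 0.69 and 0.33, and did not pass in XX against XY, with a value of −0.05. Of the partners of DSX and FRU 6 of 7 were tested. ix, the Mediator subunit that works with female DSX, rose by 0.36 in tra2 XX of the 3L lines and was 0.10 ± 0.070 in the X lines. In XX against XY retn fell by 0.15 and bon fell by 0.28.

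The outputs of the hierarchy held the largest changes among the listed genes. The yolk protein genes Yp1 and Yp2, direct DSX targets in the fat body, rose in XX against XY by 9.13 and 9.04 on the log2 scale and Yp3 by 8.59, and in tra2 XX of the 3L lines Yp1 fell by 11.26, Yp2 fell by 11.13 and Yp3 fell by 9.28 against XX. Without the 20 libraries with unusual Yp1 or roX1 the log2 fold changes were −11.85, −11.67 and −9.49, and those of XX over XY were 10.41, 10.31 and 9.61. takeout (to), a gene of the male head fat body, was −0.19 ± 0.11 in XX against XY but rose in tra2 XX by 2.44 in the 3L and 3.46 in the X lines. Of the dosage compensation genes, roX1 fell by 7.31 and roX2 fell by 4.76 in XX against XY. In tra2 XX against XX the log2 fold change of roX1 was 1.21 in the 3L lines and −1.57 in the X lines, but without the 20 libraries, some of which were set apart by roX1 itself, roX1 fell in both (−0.69, adjusted p = 0.0065, and −0.98, adjusted p = 2.4e-05). msl-2, whose translation SXL represses, fell by 1.05 in XX against XY and by a further 0.97 and 0.61 in tra2 XX of the 3L and X lines. Against XY, msl-2 fell by 2.02 ± 0.061 in tra2 XX.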

How the data were processed

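RNA-Seq of poly-A RNA from adult heads was processed by the authors, who mapped 76-nt single-end reads to FlyBase release 5 with TopHat2 2.0.10, keeping unique mappings, and deposited read counts per gene from HTSeq 0.5.4p1 without normalization. They also deposited a normalized signal, the count divided by a DESeq2 1.6.3 size factor per library, and FPKM from Cufflinks 2.1.1. HTSeq options, and so the use of strand, are not given in the sources used here. Gene positions and overlaps came from a later annotation in the reference tables. Reads that named no gene (7.12% of all, with 1.97% outside genes and 5.15% ambiguous between genes) and those of spike-ins (1.19%) stayed out of library sizes and tests. Of 249 libraries, the 14 that the labels or study set aside were not used.

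Counts were summed per line and group and fitted with edgeR 4.0.16 (TMM, filterByExpr, quasi-likelihood test, line term, Benjamini-Hochberg over all genes tested, threshold 0.05). w1118 (12 libraries) and OreR (6) were fitted as single libraries. SE is the log2 fold change over the root of F. Reads per FPKM were fitted with limma 3.58.1 on genes with a mean of at least 50 reads. FPKM were fitted with limma on log2(FPKM + 1), which understates changes of low genes. In data simulated from XX and XY of the 3L lines (10290 genes), 87% of genes changed by 0.5 on the log2 scale and 100% of those changed by 1 were recovered, and for w1118 (9861 genes) 4% and 68%. No pair of replicates agreed within sampling noise (233 pairs, lowest mean chi-square per gene 3.10). Replicate numbers did not pair libraries outside tra2 XY: deviations of same-numbered XX and XY libraries had a median correlation of −0.00, with 13 of 39 over 0.1. The median was −0.04 for XX and tra2 XX, and 0.01 for XY and tra2 XX. The sets with tra2 XY hold 3 same-numbered pairs each. Their medians were −0.12 with XX, 0.57 with XY (−0.51 for different numbers) and 0.14 with tra2 XX. No sequencing batch or date is given, so no value could be recomputed within batches.

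The text names the members, up to 4 genes per list (more for the outputs of the hierarchy), the nearest neighbours and the 3 genes most like each member over conditions with a mean over 6 normalized read counts. Other genes were singled out after their values were seen (Uhg5, Achl, l(3)73Ah, Inx7, CG1677, CG2059, Cph, unc-119, brk, Atg5, bou, CG8300 and CG4593). The listed genes da, lola and tsx were not analysed here. A further gene is not reported here. The members and lists were chosen with earlier results of these data known. DESeq2 1.42.0, RLE factors, no low-count filter, no line term, single libraries with and without a replicate block, FPKM, and fits without each line or replicate were the alternatives. The covariate, the fits without 20 libraries and reads per FPKM were added after the data were seen. Libraries stood apart if Yp1 exceeded 1% of the XX median outside XX or roX1 exceeded 5% of the XY median in XX or tra2 XX.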

Additional observations from a re-analysis of the deposited data

Results flagged for a closer look

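Of the 5 genes, Sxl and dsx changed from XX to tra2 XX by unlike amounts in the X and 3L deficiency lines. This came from a test of the difference itself. The median line mean of dsx was 354 (X lines) and 440 (3L lines) in XX, and 332 in tra2 XX of both. That of Sxl was 1826 and 2220 in XX, and 1228 and 978 in tra2 XX. On the log2 scale the change of Sxl in the X lines (tra2 XX over XX) exceeded that in the 3L lines by 0.53 ± 0.16 (adjusted p = 0.020), and for dsx by 0.50 ± 0.12 (adjusted p = 0.0057, edgeR quasi-likelihood test). Of 9835 genes tested, 10.1% were called in this direction. The Sxl call was lost without replicate 1 (adjusted p = 0.14) or replicate 2 (adjusted p = 0.093) of every line. The X lines carry a deficiency of the X and the 3L lines one of chromosome arm 3L. Over line means, the share of reads outside annotated genes had a median of 1.86% in XX and 1.29% in tra2 XX of the X lines. In the 3L lines the medians were 2.06% in XX and 1.17% in tra2 XX. With that share as a covariate the differences were 0.21 (adjusted p = 0.017) and 0.32 (adjusted p = 0.017). Their part in the difference was not tested further.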

How the results depend on the processing

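The falls of tra2 and Sxl in tra2 XX against XX, and that of tra2 against XY, held their direction and call under every alternative run in the deficiency lines. With the share of reads outside genes as a covariate, however, the fall of Sxl against XX became much smaller, while that of tra2 kept most of its size. In the 3L lines that covariate cannot be told apart from the group. With FPKM in place of normalized read counts, XX over XY in the 3L lines was −0.11 for Sxl, 0.12 for dsx, 0.081 for fru and −0.23 for tra2. For tra2 XX over XX it was −0.38 for fru in the 3L lines, and −0.31 for dsx, −0.10 for fru and −0.19 for tra in the X lines. For tra2 XX over XY it was −0.30 for fru and −0.35 for tra. The log2 ratio of 3L medians moved to −0.10 for Sxl (XX over XY) and −0.88 for dsx (tra2 XX over XX). FPKM moved the median of all genes by −0.21 (XX over XY), −0.14 and −0.12 (tra2 XX over XX, 3L and X lines) and −0.32 (tra2 XX over XY).

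With the share of reads outside genes as a covariate, tra2 XX over XX in the 3L lines was −0.18 for dsx, 0.57 for fru and −0.39 for tra. In the X lines it was 0.26 for dsx and 0.30 for fru. For tra2 XX over XY, Sxl was at 0.34 and dsx at 0.074, and the X minus 3L difference of fru was −0.048. Reads per FPKM were then −0.047 for Sxl and −0.0024 for tra2 in the X lines and 0.087 for Sxl, −0.12 for tra and 0.041 for tra2 in tra2 XX over XY. The counts of genes called became 2174 (XX over XY, OreR), 2568 (XX over XY, w1118), 1102 (sex difference with minus without tra2 alleles, w1118), 3207 and 2396 (tra2 XX over XX, 3L lines and w1118), 1470 (tra2 XX over XY, 3L lines), 126 (tra2 XX over tra2 XY, w1118), 1866 (tra2 XY over XY, w1118) and 550 for reads per FPKM in tra2 XX over XY, 3L lines.

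Without the 20 libraries that stand apart, the w1118 counts were 1333 (XX over XY), 820 (sex difference), 2368 (tra2 XX over XX), 456 (tra2 XX over tra2 XY) and 1247 (tra2 XY over XY). XX over XY in the 3L lines was then 0.16 for dsx (adjusted p = 0.073) and 0.26 for tra (adjusted p = 0.034), fru was −0.0031 in tra2 XX over XX, X lines, reads per FPKM there were −0.061 for Sxl and −0.0076 for tra2, and the X minus 3L difference of tra2 was 0.015.

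DESeq2 called 1088 (XX over XY, w1118), 469 (the sex difference), 87 (tra2 XX over tra2 XY) and 945 genes (tra2 XY over XY), and put tra at 0.21 in XX over XY, 3L lines. Without a low-count filter tra was at 0.24 there. Without the line term dsx was at 0.15 in XX over XY and −0.012 in tra2 XX over XX, X lines, and as single libraries at −0.024. tra in OreR was −0.0084 with DESeq2, −0.0090 with RLE factors and −0.0053 with no filter.

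The replicate numbers did not pair libraries outside tra2 XY (median correlation of same-numbered XX and XY deviations −0.00). With a replicate block 139 genes were called in OreR, tra was at −0.00031 there and at −0.23 in tra2 XX over XY, 3L lines, and dsx at −0.025 in tra2 XX over XX, X lines.

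When single replicates or lines were left out, the counts ranged from 145 (without XY replicate 3) to 993 (XX over XY, OreR), 189 (without XX replicate 2) to 1333 (XX over XY, w1118), 27 (without XX replicate 3) to 820 (sex difference), 793 (without XX replicate 3) to 2368 (tra2 XX over XX, w1118), 12 (without tra2 XY replicate 3) to 456 (tra2 XX over tra2 XY), 225 (without tra2 XY replicate 2) to 1247 (tra2 XY over XY) and 894 (without replicate 2 of every line) to 2731 (tra2 effect, X lines minus 3L lines). In w1118 each of the 5 highest counts was reached without tra2 XY replicate 1, the w1118 library among the 20 that stand apart. XX over XY in the 3L lines ranged from 0.12 to 0.24 for dsx, 0.17 to 0.24 for tra and −0.014 to 0.061 for tra2, in OreR from −0.018 to 0.30 for Sxl, −0.10 to 0.21 for dsx and −0.045 to 0.042 for tra, and in w1118 from −0.052 to 0.15 for tra2. tra2 XX over XX ranged in the X lines from −0.058 to 0.045 for dsx and −0.049 to 0.19 for fru, and in w1118 from −0.0058 to 0.10 for tra. tra ranged from −0.35 to −0.078 in tra2 XX over XY and from −0.25 to 0.053 in tra2 XX over tra2 XY, and Sxl from −0.24 to 0.14 in tra2 XY over XY. The X minus 3L difference ranged from 0.45 to 0.80 for Sxl, 0.18 to 0.50 for tra and −0.065 to 0.080 for tra2. Reads per FPKM ranged for tra2 XX over XX from −0.0018 to 0.03 (tra) and −0.033 to −0.0046 (tra2) in the 3L lines and from −0.15 to −0.043 (Sxl), −0.014 to 0.0025 (tra) and −0.0075 to 0.0087 (tra2) in the X lines, and for tra2 XX over XY from −0.074 to 0.0088 (Sxl), 0.032 to 0.053 (dsx) and 0.03 to 0.047 (tra2). The cause of these changes was not tested. Of the alternatives for a member in the deficiency lines, 885 kept direction and call, 42 turned in direction, 24 lost and 17 gained a call, and 2 values without a test moved. The tra and tra2 values rest on as few as 3 and 5 reads per library, and in data simulated from XX and XY of w1118, 4% of genes changed by 0.5 and 68% of those changed by 1 on the log2 scale were called.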
